A study of Mus musculus with 8 samples.

Results

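T-box transcription factors are described here in the vagal region of mouse embryos, the stretch of the embryo beside somites 1 to 7. The genes are Tbx1, Tbx2, Tbx3, Tbx4, Tbx5, Tbx6, Tbx15, Tbx18 and Tbx20. They were chosen by symbol from the deposited table, giving 9 of its 55421 genes. Both copies of Rdh10 carried the trex allele in the embryos behind 4 libraries (trex), and 4 more libraries were made from wild type embryos (wt), all at stage E9.5. Rdh10 encodes a retinol dehydrogenase that makes retinaldehyde, from which retinoic acid is formed. RNA was poly-A selected and sequenced from stranded libraries. The labels do not say how many embryos or litters stand behind a sample. The p-values therefore measure no more than sample-to-sample spread, some of which may be technical. The trex allele is carried by the whole embryo, and the sampled tissue is a mixture of cell types.

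T-box factors share a DNA-binding domain first recognised in the product of the mouse T gene (Brachyury). Different members switch genes on or off, and close relatives often act on the same sites. In the trunk, Tbx6 acts in unsegmented paraxial mesoderm and Tbx18 in the anterior part of each somite. In the pharynx and heart, Tbx1, Tbx2, Tbx3, Tbx5, Tbx18 and Tbx20 pattern the arches, the outflow tract, the chambers and the inflow. Tbx4 and Tbx5 act in limb and lung buds, and Tbx15 in mesenchyme of the limbs, skin and skull. Retinoic acid is known to restrain Tbx1 in the pharynx and to be needed for Tbx5 in the forelimb field.

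Values are TPM, a transcript's share of its library scaled for gene length, so levels of different genes can be set side by side. A gene was called when its adjusted p was below 0.05 in limma on log2(TPM + 1), with Benjamini-Hochberg adjustment over the 15717 genes with a mean TPM of at least 1. All adjusted p values are from this test unless stated otherwise. All 9 T-box genes passed that filter, which takes the mean over the 8 libraries. Tbx15 passed it only through wt (0.813 TPM in trex, 1.84 TPM in wt). The depth read back from the TPM values lay between 20928981 and 23648646 reads per library.

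Tissue markers were present in uneven amounts. All 12 markers of somite, neural tube, neural crest and foregut were found in every library, with a summed level of 712 to 937 TPM in trex and 820 to 857 TPM in wt. Their mean log2 level was 5.11 to 5.32 in trex and 5.35 to 5.41 in wt, without overlap and lower in trex. Of these 12, 2 fell in trex and none rose, where 8.71% of all tested genes were called. The 10 cardiomyocyte markers summed to 219, 248, 2129 and 2564 TPM in trex replicates 1 to 4 and to 301, 1217, 644 and 2619 TPM in wt replicates 1 to 4. None of the 10 was called, and Nppa was the only one listed at 0 in any library, wt replicate 1. Liver and yolk sac markers also ran widely, from 18.6 to 498 TPM in trex and from 20.1 to 210 TPM in wt. The summed erythroid markers stood at 3041 TPM in trex replicate 1, against 7079 to 15783 TPM in the other 7 libraries. The mean log2 levels of the limb bud, otic vesicle and caudal axis marker lists also separated the genotypes, with trex higher, though not every marker in them did. Their values stand beside the T-box genes they bear on. Rdh10 itself stood at 62.7 to 106 TPM in trex and 36.3 to 41.0 TPM in wt, and was called higher in trex (1.96-fold, adjusted p = 0.0126, and 0.054 without wt replicate 2). Of all 8 libraries only wt replicate 2 (162 TPM) and wt replicate 3 (158 TPM) held Y-linked transcripts above 0.0662 TPM in sum. With a covariate that marks these 2 libraries, a choice made after seeing the data, 39 of the 15717 genes were called, and no T-box gene was. Both marked libraries are wt, so the genotype difference in that fit is trex against wt replicates 1 and 4 alone.

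No T-box gene was called between the genotypes. A p that misses the threshold does not show equal levels, so the interval of each difference is given with it. At an unadjusted p below 0.05 there was 1 of 9, Tbx6, where 29.0% of the 15717 tested genes passed that level. In the same test 8.71% of the tested genes were called, 4.94% (777 genes) higher and 3.77% (592 genes) lower in trex. The higher genes made up 56.8% of all calls, but 46.1% after quantile normalization and 43.9% by limma voom on recovered reads. Trex and wt values did not overlap for 1 of the 9, again Tbx6, with trex higher. Among the tested genes 21.8% did not overlap, 12.9% with trex higher and 8.95% with trex lower. The median log2 difference, trex minus wt, was -0.08 over the 9 genes and 0.04 over all tested genes. By limma voom the count of T-box genes called was also 0, beside 1462 of 15706 tested genes. An eBayes fit without a variance trend called Tbx6 (adjusted p = 0.0402), beside 1041 of the 15717 tested genes. Array weights called 4, Tbx1, Tbx3, Tbx5 and Tbx6, beside 5524 of the 15717 tested genes.

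**Figure D1:**
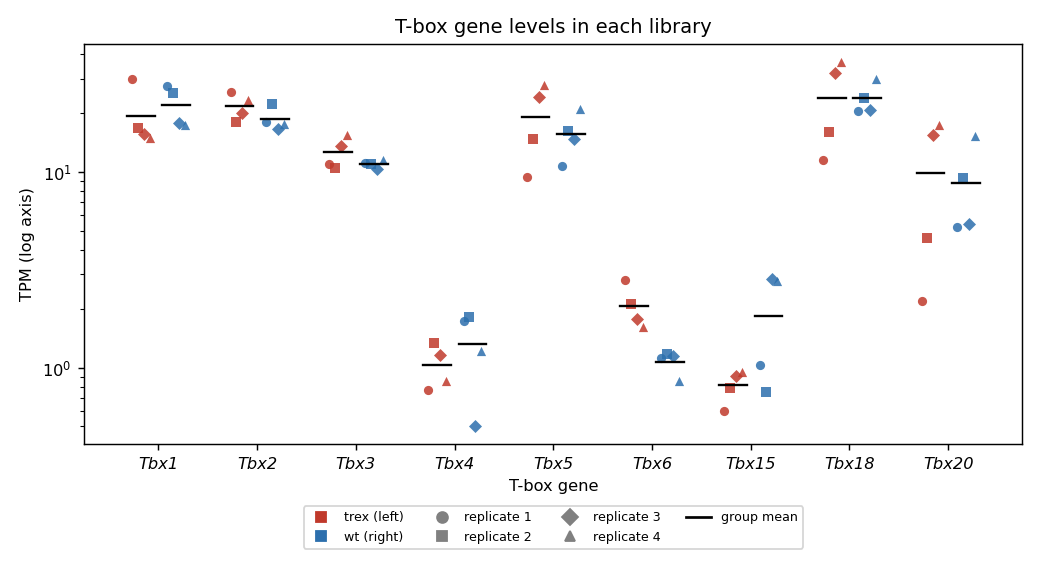
Level of each T-box gene in TPM on a log axis, with trex libraries in red to the left and wt libraries in blue to the right. Points are libraries with 1 symbol per replicate number, and bars are group means. The trex and wt points of Tbx6 do not overlap, those of the other 8 genes do, and Tbx20 spans 2.18 to 17.4 TPM within trex.

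In wt embryos the order of mean levels was Tbx18 (23.7 TPM), Tbx1 (22.0 TPM), Tbx2 (18.6 TPM), Tbx5 (15.6 TPM), Tbx3 (10.97 TPM), Tbx20 (8.78 TPM), Tbx15 (1.84 TPM), Tbx4 (1.32 TPM) and Tbx6 (1.07 TPM). Only the step between Tbx20 and Tbx15 separated neighbours whose wt ranges did not overlap. In trex the 6 higher genes were the same 6, led by Tbx18 at 23.9 TPM and closed by Tbx20 at 9.89 TPM, and their ranges overlapped from each to the next. Below them came Tbx6 at 2.07 TPM, Tbx4 at 1.03 TPM and Tbx15 at 0.813 TPM. The single step without overlap in trex lay between Tbx6 and Tbx4. Tbx20 reached down into the range of Tbx6, since trex replicate 1 held 2.18 TPM of Tbx20 and 2.79 TPM of Tbx6.

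Promoter sequence is shown for the member whose groups did not overlap (Tbx6) and for the 2 members that varied most closely together (Tbx18 and Tbx20). Each is the stretch of 250 bases before the annotated start in RefSeq, build GRCm38.p6, 5′ to 3′ on the gene's strand, at chr7:126781233-126781482 (plus strand), chr9:87731261-87731510 (minus strand) and chr9:24774304-24774553 (minus strand). Capitals mark a motif match.
Tbx6: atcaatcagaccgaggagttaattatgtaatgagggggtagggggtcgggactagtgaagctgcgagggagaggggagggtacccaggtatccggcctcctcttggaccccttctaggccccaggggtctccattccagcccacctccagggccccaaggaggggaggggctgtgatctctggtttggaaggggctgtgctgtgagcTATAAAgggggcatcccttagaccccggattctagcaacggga
Tbx18: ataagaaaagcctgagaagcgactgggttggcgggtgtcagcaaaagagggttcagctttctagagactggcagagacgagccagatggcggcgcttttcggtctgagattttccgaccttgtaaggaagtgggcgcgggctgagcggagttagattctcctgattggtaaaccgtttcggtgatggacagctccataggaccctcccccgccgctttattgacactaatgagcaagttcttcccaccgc
Tbx20: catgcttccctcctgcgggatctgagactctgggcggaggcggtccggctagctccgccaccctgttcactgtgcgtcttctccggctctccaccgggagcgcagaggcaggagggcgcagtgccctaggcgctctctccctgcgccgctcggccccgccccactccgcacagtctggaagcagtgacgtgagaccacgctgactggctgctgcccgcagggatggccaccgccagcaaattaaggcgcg
The searched motifs were the T-box half-site core GGTGTGA, the retinoic acid receptor half-site AGGTCA, and that half-site as a direct repeat with 2 or 5 bases between, each on both strands, plus the TATA box core TATAAA as written. The TATA core was added after the Tbx6 sequence had been seen. Windows were matched for 5 of the 9 genes, Tbx1 (2 windows), Tbx4, Tbx6, Tbx18 and Tbx20. The single match in them was a TATAAA that begins 43 bases before the Tbx6 start, a motif held by 7.59% of all 32851 windows. The T-box core was held by 3.33% of all windows and the receptor half-site by 14.02%, and these letters were not in the windows of the 5 genes. The Tbx20 window held 22 CpG pairs and the Tbx18 window 15, against a median of 6 over all windows, and the Tbx6 window held 6.

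Tbx6, the regulator of presomitic mesoderm, was the most divided of the 9 genes. The gene (ENSMUSG00000030699, chromosome 7, 126781483 to 126785560, mm10, plus strand) held 2.79, 2.12, 1.78 and 1.61 TPM in trex replicates 1 to 4, against 1.12, 1.17, 1.14 and 0.859 TPM in wt replicates 1 to 4. Every trex library lay above every wt library. Tbx6 averaged 2.07 ± 0.522 TPM over the trex libraries and 1.07 ± 0.145 TPM over the wt libraries (SD, n = 4 in each genotype), a ratio of 1.93. The log2 difference was 0.56 ± 0.16 (SE), with a 95% interval of 0.19 to 0.92 before adjustment and an adjusted p of 0.0658. By exact permutation, two-sided, p was 0.0286, and a design of 4 against 4 can give none smaller. Leaving out 1 library at a time gave adjusted p values from 0.0726 to 0.151. The TPM values rest on few reads, 17 to 29 per trex library and 9 to 12 per wt library. Summed, these were 85 reads in trex (95% Poisson interval 67.9 to 105) and 44 in wt (32.0 to 59.1), intervals that cover counting error only.

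Presomitic mesoderm and somite genes linked to Tbx6 and Tbx18 did not move together. Among the 16 listed genes, 12 were tested, of which 1 rose, 1 fell and 10 were not called, which is 16.7% called beside 8.71% of all tested genes. Their median log2 difference was -0.02. Lfng, a glycosyltransferase that modifies Notch, fell to 51.3 ± 11.1 TPM in trex, against 86.0 ± 10.5 TPM in wt (adjusted p = 0.0239). Uncx, of the posterior part of each somite, rose to 19.2 ± 4.46 TPM in trex, against 9.52 ± 2.27 TPM in wt (adjusted p = 0.0234). Mesp2, which Tbx6 activates in the forming somite, stood at 0.178 to 0.582 TPM in trex and 0.379 to 0.708 TPM in wt and was not tested. Dll1, a Notch ligand downstream of Tbx6, averaged 43.1 ± 10.2 TPM in trex and 58.2 ± 7.57 TPM in wt, without overlap and not called (adjusted p = 0.139). The calls of both Lfng and Uncx ended without trex replicate 4, wt replicate 1 or wt replicate 2, that of Lfng also without wt replicate 3 and that of Uncx without wt replicate 4 (adjusted p up to 0.0844 for each). The 8 markers of the caudal axis, T, Cdx2, Cdx4, Wnt3a, Fgf8, Nkx1-2, Hoxc8 and Hoxb9, summed to 331 to 497 TPM in trex and 43.6 to 153 TPM in wt. Hoxb9 alone made up 259 to 382 TPM of that sum in trex and 8.57 to 110.0 TPM in wt, while Nkx1-2 averaged 2.84 TPM in trex and 4.03 TPM in wt. Of the 7 caudal markers tested 3 rose and none fell, where 8.71% of all tested genes were called. Hoxc8 (22.6 TPM in trex, 0.396 TPM in wt) passed the filter on mean TPM only through trex. The mean log2 level of the 8 otic vesicle markers was 2.56 to 3.36 in trex and 2.15 to 2.39 in wt, without overlap. Of the 7 tested 3 rose and 1 fell, beside 8.71% of all tested genes called. Otx2 (2.14 TPM in trex, 0.219 TPM in wt) passed the filter only through trex. The otic marker that fell was Gbx2 (16.9 TPM in trex, 27.6 TPM in wt), and Pax2 overlapped (1.72 TPM in trex, 1.31 TPM in wt). Over the 8 libraries Tbx6 had r = 0.90 with the otic mean and r = 0.77 with the caudal mean, which includes T. These values include the offset between the genotypes. Within trex r was 0.81 with the otic mean and 0.43 with the caudal mean, and within wt 0.22 and -0.58. The part of either tissue in the Tbx6 values was not tested.

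Tbx18, of the anterior somite compartment, the sinus venosus and the proepicardium, had nearly equal group means. The gene (ENSMUSG00000032419, chromosome 9, 87702800 to 87731260, minus strand) held 11.5, 15.9, 31.8 and 36.4 TPM in trex replicates 1 to 4, against 20.5, 23.9, 20.8 and 29.7 TPM in wt replicates 1 to 4. Trex replicates 1 and 2 lay below all wt libraries and trex replicates 3 and 4 above them all. Means were 23.9 ± 12.1 TPM in trex and 23.7 ± 4.28 TPM in wt. The log2 difference was -0.12 ± 0.33 (95% interval -0.87 to 0.64, adjusted p = 0.836), an interval that reaches from 0.546 to 1.56 times the wt level.

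Tbx20, a regulator of heart chamber growth that is also used in hindbrain motor neurons, had the largest SD of log2(TPM + 1) among the 9 genes in each genotype. The gene (ENSMUSG00000031965, chromosome 9, 24718138 to 24774303, minus strand) held 2.18, 4.59, 15.4 and 17.4 TPM in trex replicates 1 to 4, against 5.20, 9.31, 5.43 and 15.2 TPM in wt replicates 1 to 4. Here too trex replicates 1 and 2 lay below all wt libraries and trex replicates 3 and 4 above. The highest trex library held 7.99 times the lowest, and the highest wt library 2.92 times the lowest. In wt that ratio was larger for Tbx15 (3.76) and Tbx4 (3.60). On the log2(TPM + 1) scale the SD within trex was 1.23, larger than for 98.9% of the tested genes, and within wt it was 0.65, larger than for 96.8%. The log2 difference of -0.08 ± 0.58 had a 95% interval from -1.39 to 1.24 (adjusted p = 0.941), which spans 0.381 to 2.36 times the wt level.

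Tbx5, needed for the inflow side of the heart, the forelimb and the lung bud, followed the same libraries. The gene (ENSMUSG00000018263, chromosome 5, 119832668 to 119885219, plus strand) held 9.38, 14.7, 24.1 and 27.7 TPM in trex replicates 1 to 4, against 10.7, 16.1, 14.7 and 21.02 TPM in wt replicates 1 to 4. Trex replicates 3 and 4 were the highest of all libraries and trex replicate 1 the lowest. Means were 18.98 ± 8.42 TPM in trex and 15.6 ± 4.26 TPM in wt, with a log2 difference of 0.19 ± 0.32 (95% interval -0.54 to 0.92, adjusted p = 0.718). With array weights, which weight libraries by how well they fit their group, the difference was 0.56 and was called (adjusted p = 0.0369). That setting called 5524 of the 15717 tested genes.

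Tbx5, Tbx18 and Tbx20 shared one pattern over the 8 libraries. Pearson's r of log2(TPM + 1) was 0.98 between Tbx18 and Tbx20, 0.94 between Tbx5 and Tbx20 and 0.91 between Tbx5 and Tbx18, as descriptions over 8 libraries that share tissue and depth. All 3 genes put the trex libraries in the same order, from replicate 1 as the lowest over 2 and 3 to 4, and the wt libraries in the order 1, 3, 2, 4. Tbx18 and Tbx20 lie on the same chromosome but 62.9 Mb apart. The mean log2 level of the 10 cardiomyocyte markers ran with them, with r = 0.94 for Tbx20, 0.93 for Tbx5, 0.89 for Tbx18 and 0.73 for Tbx3. That mean was 3.29, 3.25, 6.33 and 6.56 in trex replicates 1 to 4 and 3.03, 5.01, 4.31 and 6.41 in wt replicates 1 to 4. The mean log2 level of the liver and yolk sac markers also ran with these genes, with r = 0.83 for Tbx5, 0.75 for Tbx18 and 0.72 for Tbx20. Within trex these were 0.98, 0.996 and 0.99, but within wt 0.57, 0.37 and 0.28. For the cardiomyocyte mean they were 0.93, 0.97 and 0.96 within trex and 0.995, 0.94 and 0.94 within wt. In bulk tissue a different share of heart cells and a different amount of RNA per cell cannot be told apart, and the part of heart, liver or yolk sac tissue in these T-box values was not tested.

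**Figure D2:**
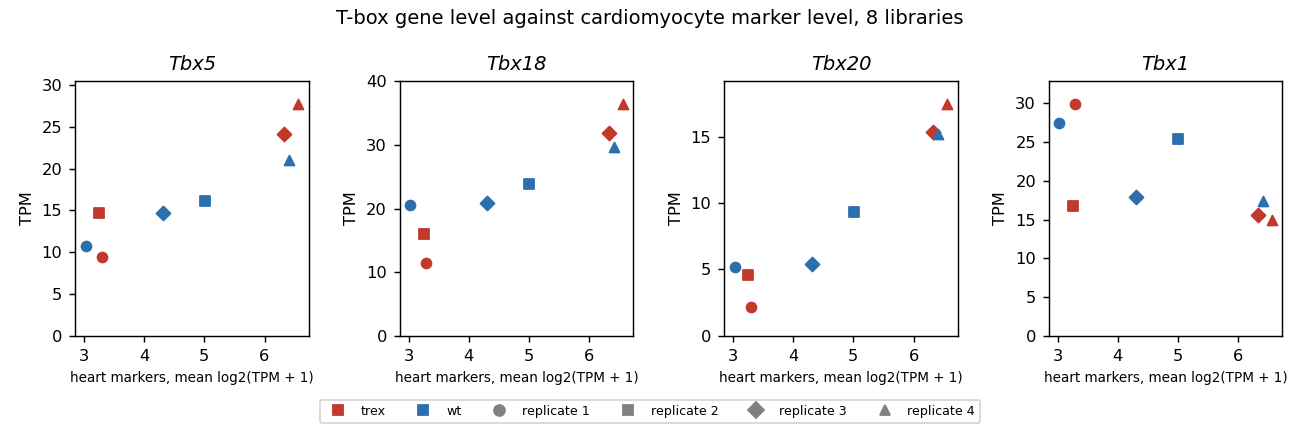
Level of Tbx5, Tbx18, Tbx20 and Tbx1 in TPM (vertical axes, from 0) against the mean log2(TPM + 1) of 10 cardiomyocyte markers (horizontal axes), with 1 point per library, trex in red and wt in blue, and 1 symbol per replicate number. The libraries lowest in heart markers, at 3.03 to 3.29, hold 2.18 to 5.20 TPM of Tbx20, and those highest, at 6.33 to 6.56, hold 15.2 to 17.4 TPM.

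Among 24 heart genes linked to Tbx5, Tbx20, Tbx2 and Tbx3, all tested, 4 rose, none fell and 20 were not called, 16.7% beside 8.71% of all tested genes. The median log2 difference was 0.30. Hand1 rose to 63.3 ± 40.0 TPM in trex, against 9.56 ± 3.71 TPM in wt (adjusted p = 0.0328), and Hand2 to 74.6 ± 19.0 TPM, against 36.8 ± 10.8 TPM in wt (adjusted p = 0.0345). Both are basic helix-loop-helix factors of heart and lateral mesoderm. Id2, an inhibitor of such factors, rose to 423 ± 57.9 TPM in trex, against 313 ± 10.8 TPM in wt (adjusted p = 0.0266). These 3 calls ended without any 1 of trex replicates 3 and 4 and wt replicates 1 to 3, and for Hand1 and Id2 also without wt replicate 4 (adjusted p up to 0.107). Nkx2-5 averaged 15.1 ± 9.93 TPM in trex and 18.2 ± 7.17 TPM in wt (adjusted p = 0.577). Gata4 averaged 45.5 ± 34.2 TPM in trex and 43.9 ± 22.2 TPM in wt (adjusted p = 0.889). Both encode cofactors of Tbx5 and Tbx20. Of 7 tested epicardium and mesothelium genes set beside Tbx18, 2 rose and none fell, 28.6% beside 8.71% of all tested genes. Those that rose were Sema3d, a guidance ligand (20.5 ± 1.09 TPM in trex, 15.5 ± 0.78 TPM in wt, adjusted p = 0.0166), and Aldh1a2, which makes retinoic acid (318 ± 41.0 TPM in trex, 216 ± 41.8 TPM in wt, adjusted p = 0.0436). Leaving out any of wt replicates 1 to 3 ended the Sema3d call (adjusted p reached 0.0635), and the Aldh1a2 call without trex replicate 3 or 4 or any 1 wt library (up to 0.131).

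Tbx3 and Tbx2, repressors that keep myocardium of the atrioventricular canal and outflow tract from becoming chamber, varied least among the higher genes. Tbx3 (ENSMUSG00000018604, chromosome 5, 119670669 to 119684724, plus strand) held 10.99, 10.5, 13.5 and 15.4 TPM in trex replicates 1 to 4, against 11.1, 10.9, 10.3 and 11.5 TPM in wt replicates 1 to 4. Its wt libraries differed by 1.12-fold at most, while trex replicates 3 and 4 exceeded them all. The log2 difference was 0.17 ± 0.12 (95% interval -0.11 to 0.44, adjusted p = 0.374). With array weights it was called (adjusted p = 0.0161), as were 5524 of the 15717 tested genes. An antisense gene, Tbx3os1, overlaps Tbx3 by 697 bases and stood at 0.658 to 1.26 TPM in trex and 0.465 to 0.724 TPM in wt. Since the strand setting of the counting is not given in the sources used here, reads of the overlap cannot be told apart.

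Tbx2 (ENSMUSG00000000093, chromosome 11, 85832551 to 85841948, plus strand) held 25.5, 17.9, 20.02 and 23.4 TPM in trex replicates 1 to 4, against 18.1, 22.2, 16.5 and 17.7 TPM in wt replicates 1 to 4. Trex replicates 1 and 4 lay above all wt libraries and the other two within their range. The log2 difference was 0.21 ± 0.13 (95% interval -0.08 to 0.50, adjusted p = 0.298). The intervals of Tbx2 and Tbx3 were the narrowest of the 9, and reached 1.41-fold and 1.36-fold at their upper ends.

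Among 14 BMP and Wnt genes set upstream of Tbx2, Tbx3 and Tbx6, 8 rose, none fell and 6 were not called, 57.1% beside 8.71% of all tested genes, with a median log2 difference of 0.41. The bone morphogenetic protein genes Bmp4 and Bmp5 rose to 90.2 ± 10.4 TPM and 35.6 ± 4.06 TPM in trex, against 54.8 ± 4.19 TPM and 21.8 ± 3.01 TPM in wt (adjusted p = 0.00673 and 0.0126). Lef1, a transcription factor through which Wnt signals act, rose to 30.9 ± 2.23 TPM, against 20.6 ± 2.96 TPM in wt (adjusted p = 0.0177). The calls of Bmp5 and Lef1 ended without wt replicate 2 (adjusted p = 0.054 and 0.0709). The list held between 1 and 11 called genes when 1 library was left out, the fewest without wt replicate 2.

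Tbx1, the pharyngeal gene whose human counterpart lies in the interval deleted in DiGeorge syndrome, divided both groups. The gene (ENSMUSG00000009097, chromosome 16, 18580979 to 18590671, minus strand) held 29.9, 16.7, 15.7 and 15.0 TPM in trex replicates 1 to 4, against 27.5, 25.4, 17.9 and 17.4 TPM in wt replicates 1 to 4. Trex replicates 2 to 4 lay below every wt library, and trex replicate 1 above every one. Means were 19.3 ± 7.08 TPM in trex and 22.0 ± 5.15 TPM in wt, with a log2 difference of -0.21 ± 0.23 (95% interval -0.74 to 0.32, adjusted p = 0.567). Without trex replicate 1 the log2 difference was -0.43 (adjusted p = 0.133). With array weights it was -0.41 and was called (adjusted p = 0.0477), in a setting that called 5524 of the 15717 tested genes. Over the 8 libraries Tbx1 ran against Tbx5 (r = -0.84) and against the mean log2 level of 10 liver and yolk sac markers (r = -0.86). That mean was 1.11, 1.77, 3.78 and 4.38 in trex replicates 1 to 4 and 1.20, 1.00, 3.50 and 3.50 in wt replicates 1 to 4, and its part in the Tbx1 values was not tested.

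Pharyngeal and second heart field genes linked to Tbx1 moved both ways. Of 23 tested 3 rose, 3 fell and 17 were not called, 26.1% beside 8.71% of all tested genes, and the median log2 difference was 0.35. Isl1, a factor of second heart field progenitors and motor neurons, fell to 26.8 ± 2.58 TPM in trex, against 37.2 ± 4.14 TPM in wt (adjusted p = 0.0276). The Notch target gene Hes1 rose to 97.6 ± 12.3 TPM, against 66.7 ± 4.83 TPM in wt (adjusted p = 0.0151), and Bmp4, given above, was also on this list. Fgf8 and Fgf10, growth factor genes that act downstream of Tbx1, were not called. Fgf8 stood at 43.7 TPM in trex replicate 1 and 16.5 to 21.2 TPM in the other trex libraries, against 16.8 to 21.7 TPM in wt. Fgf10 stood at 15.7 to 21.9 TPM in trex and 5.72 to 14.5 TPM in wt, without overlap (adjusted p = 0.092). Cyp26a1, which degrades retinoic acid, averaged 10.9 ± 5.99 TPM in trex and 14.6 ± 5.11 TPM in wt (adjusted p = 0.407). Leaving out trex replicate 4 or wt replicate 2 or 3 ended the call of Hes1 (adjusted p up to 0.0616), and leaving out trex replicate 4 or wt replicate 1, 2 or 3 that of Isl1 (up to 0.0989).

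Tbx4, of the hindlimb and lung mesenchyme, was scarce in both genotypes. The gene (ENSMUSG00000000094, chromosome 11, 85886422 to 85916097, plus strand) starts 44.5 kb beyond the end of Tbx2, as Tbx5 starts 148 kb beyond the end of Tbx3. It held 0.765, 1.33, 1.16 and 0.851 TPM in trex replicates 1 to 4, against 1.73, 1.82, 0.504 and 1.21 TPM in wt replicates 1 to 4. The trex values lay wholly inside the wt range. The log2 difference was -0.16 ± 0.23 (95% interval -0.68 to 0.36, adjusted p = 0.664), and the values rest on 15 to 26 reads per trex library and 10 to 35 per wt library. Over the 8 libraries r was -0.05 between the neighbours Tbx2 and Tbx4 and 0.76 between the neighbours Tbx3 and Tbx5. For Tbx2 and Tbx4 it was -0.995 within trex and 0.75 within wt, and for Tbx3 and Tbx5 0.87 and 0.32.

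Tbx15 was at or below 1.03 TPM in 6 libraries and higher in 2 wt libraries. The gene (ENSMUSG00000027868, chromosome 3, 99240381 to 99354259, plus strand) held 0.601, 0.788, 0.906 and 0.955 TPM in trex replicates 1 to 4, against 1.03, 0.753, 2.83 and 2.76 TPM in wt replicates 1 to 4. The groups overlapped through wt replicate 2 alone. Reads numbered 13 to 21 per trex library, against 21, 16, 62 and 60 in wt replicates 1 to 4. Means were 0.813 ± 0.157 TPM in trex and 1.84 ± 1.105 TPM in wt, with a log2 difference of -0.57 ± 0.28 (95% interval -1.20 to 0.07, adjusted p = 0.214). Liver and yolk sac markers, at a mean log2 level of 1.20, 1.00, 3.50 and 3.50 in wt replicates 1 to 4, were high in the same 2 wt libraries. So were the caudal axis markers, at 2.23, 1.97, 2.84 and 2.80, and the limb bud markers, at 4.23, 4.32, 4.64 and 4.58 in wt replicates 1 to 4. In trex replicates 3 and 4 the liver and yolk sac markers stood at 3.78 and 4.38 and Tbx15 at 0.906 and 0.955 TPM. The part of these tissues in the Tbx15 values was not tested.

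Limb and lung bud genes linked to Tbx4, Tbx5 and Tbx15 held 16 tested genes, of which 5 rose, 2 fell and 9 were not called, 43.8% beside 8.71% of all tested genes. The median log2 difference was 0.15. The mean log2 level of 8 limb bud mesenchyme markers was 4.75 to 4.998 in trex and 4.23 to 4.64 in wt, without overlap. Of these 8 markers 2 rose and none fell, beside 8.71% of all tested genes called. Pitx1 (2.28 TPM in trex, 0.279 TPM in wt) passed the filter on mean TPM only through trex. Prrx1 averaged 46.0 TPM in trex and 44.5 TPM in wt, and Shh 42.7 TPM and 43.4 TPM. Prrx1, Fgf10, Hand2, Msx1, Pitx1 and Sall4 are in both lists, so the marker mean is no separate measure. The part of limb bud tissue in this list was not tested. Nkx2-1, of the lung and thyroid primordia, fell to 0.486 ± 0.277 TPM in trex, against 4.39 ± 1.23 TPM in wt (adjusted p = 0.00441). It passed the filter on mean TPM only through wt. Wnt2b, a lung mesenchyme ligand gene that Tbx5 activates, fell to 1.47 ± 0.45 TPM, against 4.25 ± 0.84 TPM in wt (adjusted p = 0.0125, and 0.0523 without wt replicate 2). Twist1, of limb and other mesenchyme, rose to 330 ± 11.2 TPM in trex, against 255 ± 8.98 TPM in wt (adjusted p = 0.00489). The list held between 2 and 8 called genes when 1 library was left out, the fewest without wt replicate 2.

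**Figure D3:**
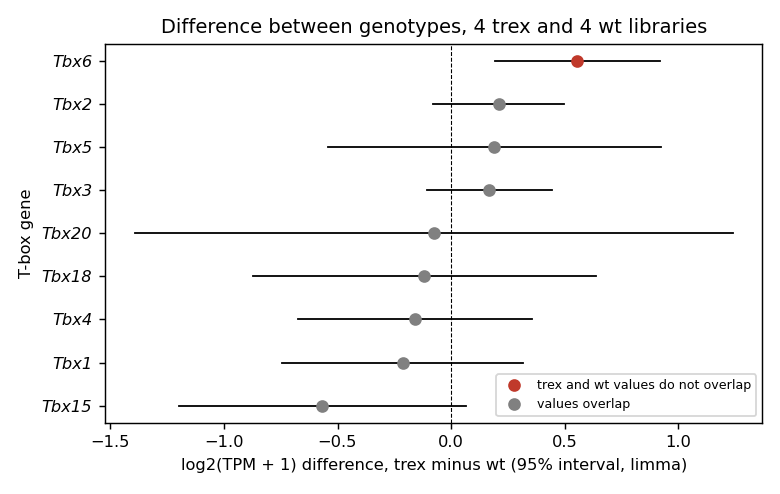
Log2(TPM + 1) difference of each T-box gene, trex minus wt, from limma over 4 trex and 4 wt libraries. Points are estimates and lines 95% intervals before adjustment. The interval of Tbx6, whose point is red because its groups do not overlap, runs from 0.19 to 0.92, and the intervals of the other 8 genes include 0.

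Genes listed as corepressors and adaptors of T-box factors moved both ways. Of 7 tested 1 rose, 3 fell and 3 were not called, 57.1% beside 8.71% of all tested genes, and the median log2 difference was 0.03. Ripply3, which binds Tbx1 and turns it towards repression, held 9.62, 14.1, 14.7 and 13.6 TPM in trex replicates 1 to 4, against 35.8, 37.1, 40.2 and 36.9 TPM in wt replicates 1 to 4. Ripply3 fell (log2 difference -1.48, adjusted p = 0.00108), and its call held without each library in turn (adjusted p up to 0.0101). The Groucho family genes Tle5 and Tle1 fell to 55.9 ± 10.1 TPM and 32.4 ± 3.71 TPM in trex, against 91.0 ± 5.78 TPM and 44.5 ± 2.85 TPM in wt (adjusted p = 0.013 and 0.0198). Tle5 is annotated as Aes in GENCODE M21, the source of the symbols used here. The Tle5 call ended without wt replicate 2 (adjusted p = 0.056), and the Tle1 call without trex replicate 3 or 4 or wt replicate 1, 2 or 3 (up to 0.0773).

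Other members of the family were mostly near 0. Tbx10, Tbx19, Tbx21, Tbx22, Eomes and Tbr1 stayed at or below 0.767 TPM in every library and were not tested. T (Brachyury), of the notochord and tail bud, held 21.1, 10.9, 10.3 and 12.0 TPM in trex replicates 1 to 4, against 7.95, 6.55, 7.55 and 7.73 TPM in wt replicates 1 to 4. Mga, a widely expressed repressor, held 79.5, 58.5, 53.2 and 54.9 TPM in trex replicates 1 to 4, against 43.9, 47.3, 48.0 and 50.03 TPM in wt replicates 1 to 4. Groups of both genes did not overlap, with trex higher, but neither was called (adjusted p = 0.058 for T and 0.096 for Mga). Without trex replicate 1 both were called (0.0155 and 0.0419), and T also without trex replicate 2 (0.0405). Counting all 11 tested genes of the family, trex and wt did not overlap for Tbx6, T and Mga, beside 21.8% of all tested genes.

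Most of the retinoic acid responsive genes fell. Of 14 tested 1 rose, 9 fell and 4 were not called, 71.4% beside 8.71% of all tested genes, with a median log2 difference of -0.61. Tshz1, a zinc finger gene, averaged 51.3 ± 1.15 TPM in trex and 110.5 ± 8.68 TPM in wt (adjusted p = 0.000169). Rarb, a retinoic acid receptor, averaged 25.3 ± 6.40 TPM in trex and 54.9 ± 4.10 TPM in wt (adjusted p = 0.00777). Earlier results of these data were known when this list was drawn up, so its count is no independent evidence.

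Counts in the lists moved with single libraries. Leaving out 1 at a time gave 0 to 7 called heart genes, 1 to 10 pharyngeal genes and 0 to 5 presomitic and somite genes. It also gave 0 to 3 epicardium genes, 1 to 3 corepressors or adaptors and 7 to 11 retinoic acid responsive genes. With the covariate that marks wt replicates 2 and 3, each of the 8 lists of partner and pathway genes held at most 1 called gene.

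**Figure D4:**
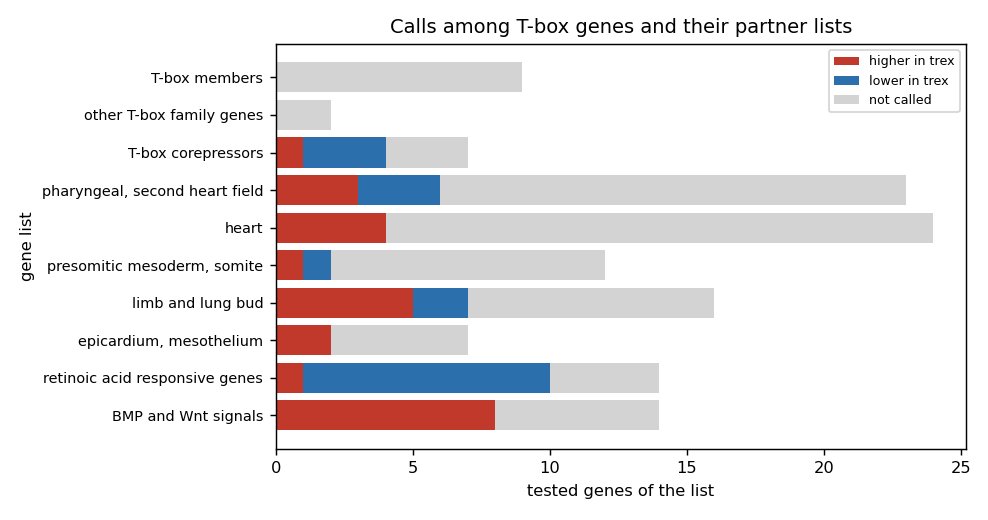
Number of tested genes called higher (red), lower (blue) or not called (grey) in trex against wt, for the 9 T-box genes and the lists of related genes. All 9 T-box genes are grey, 8 of 14 BMP and Wnt genes are red and 9 of 14 retinoic acid responsive genes are blue.

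The genes most like each T-box gene were sought among 12349 tested protein-coding genes by Pearson's r of log2(TPM + 1) over the 8 libraries. They are the highest of many values, so a large r is built in. Tbx20 was most like Myl9 (r = 0.996), a smooth muscle myosin light chain gene, and Gucy1b1 (0.987), a guanylate cyclase subunit gene. Gucy1b1 was also first for Tbx18 (0.987), followed by Olfml2b (0.974). Tbx5 was most like Arhgap1 (0.989) and Vcl (0.989), the vinculin gene. Tbx6 was most like Zer1 and Trio (0.990 each), and Tbx1 like Eml5 (0.974) and Mgst1 (0.973). Tbx2 was most like Pcdhgb5 and Klhl2 (0.972 each), Tbx3 like Clec14a (0.971) and Steap2 (0.957), and Tbx4 like Gzmm (0.909) and Faxc (0.905). Tbx15 was most like Gcg (0.969) and Ghrl (0.946), the glucagon and ghrelin genes. Gcg was listed at 0 in all 4 trex libraries, against 0.493, 0.472, 10.5 and 6.91 TPM in wt replicates 1 to 4.

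**Figure D5:**
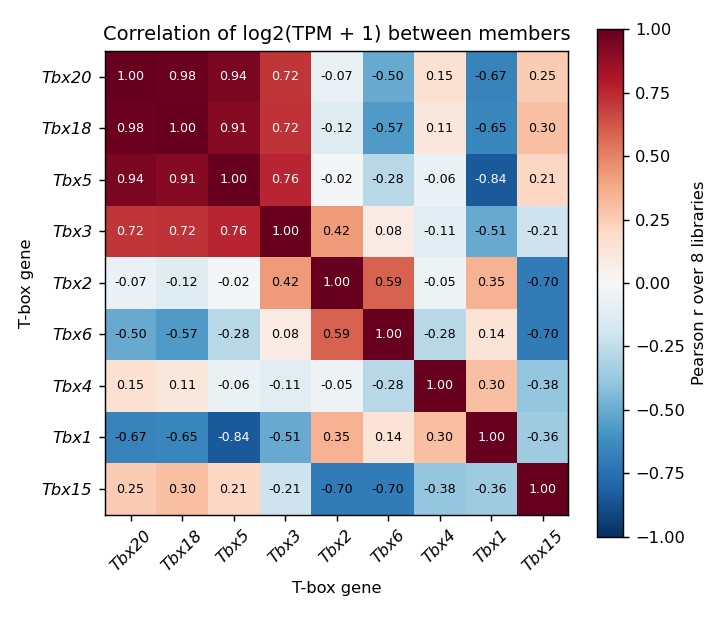
Pearson's r of log2(TPM + 1) between each pair of T-box genes over the 8 libraries, as a description with no test. Tbx20, Tbx18 and Tbx5 form a block at 0.91 to 0.98, and Tbx1 runs against Tbx5 at -0.84.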

How the data were processed

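The authors deposited TPM values, with 1 column for each of the 8 samples. CASAVA 1.8.2, STAR and mm10 are named in the submitters' processing notes. Which program counted reads, with what strand setting and gene models, is not given in the sources used here. Symbols, coordinates and exonic lengths came from GENCODE M21 on the same assembly, which matched 55240 of 55421 identifiers. TPM times exonic length gave whole reads within 0.001 read for 98.7% to 98.9% of low values (up to 200 reads). For the 9 T-box genes every value came out whole.

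Genes with a mean TPM of at least 1 were tested with limma 3.58.1 in R 4.3.3 on log2(TPM + 1), two-sided, with a mean-variance trend, a single genotype term and adjustment by Benjamini-Hochberg. Log2 differences on this scale understate changes of low genes. Single genes were also given an exact permutation test (scipy 1.17.1). Values are mean ± SD over 4 libraries, and ± after a log2 difference is the SE.

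Members, lists and motifs were chosen with earlier results of these data known. Named genes are all T-box genes, Rdh10, up to 3 called genes with the smallest p from each list, the 2 genes most like each member, and a fixed set (Cyp26a1, Aldh1a2, Nkx2-5, Isl1, Fgf8, Fgf10, Hand2, Gata4, Ripply3, Mesp2 and Dll1). The caudal markers and some limb bud and otic markers were named as markers. Some genes that meet these rules are not reported here. Alternatives were other pseudocounts, filters, scalings and eBayes settings, array weights, voom on recovered reads, the replicate number as a block and leaving out each library. Comparison of protein sequences was not run.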

Additional observations from a re-analysis of the deposited data

Results flagged for a closer look

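By Dixon's criterion 1 library lay far from the other 3 of its genotype in 4 of 38 gene and genotype combinations, where chance picks out about 1 in 20. Trex replicate 1 was that library for 3 of them. It held 29.9 TPM of Tbx1 where the other trex libraries held 15.0 to 16.7 TPM, 21.1 TPM of T where they held 10.3 to 12.0 TPM, and 106 TPM of Rdh10 where they held 62.7 to 69.0 TPM. In wt, replicate 4 held 0.859 TPM of Tbx6 where the other wt libraries held 1.12 to 1.17 TPM, which is 9 reads beside 11 to 12.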

How the results depend on the processing

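Over all tested genes 1369 were called, but 694 with no filter, 5524 with array weights and 199 (without wt replicate 2) to 2926 (without trex replicate 2) when 1 library was left out. Among the T-box genes 0 were called, but 1 by eBayes without a trend and 4 with array weights, and 0 without any 1 library. Of the listed genes 38 were called, but 23 with no filter, 71 with array weights and 11 to 51 without 1 library. Both alternatives added after seeing the data cut these counts. With the covariate that marks wt replicates 2 and 3, 39 genes and 3 listed genes were called. In the 6 libraries low in Y-linked transcripts, a fit with 2 wt libraries, 8 and 1 were called. The genotype difference in both fits is trex against wt replicates 1 and 4 alone (0.61 for Tbx6 in each). Signs turned only for genes with intervals wide about 0. The log2 difference of Tbx20 was 0.0088 with a pseudocount of 5 and 0.74 with array weights, which gave Tbx18 0.37. Without 1 library it ran from -0.020 to 0.47 for Tbx5, from -0.36 to 0.17 for Tbx18 and from -0.45 to 0.40 for Tbx20. The cause of these shifts was not tested.

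With the replicate number as a block 687 genes were called. The correlations of same-numbered deviations were 0.16, -0.02, -0.0045 and 0.25. Trex replicates 1 and 4 correlated best with the same wt number, and trex replicates 2 and 3 with another. These values do not settle whether same-numbered samples are paired. A minimum mean TPM of 5 leaves out Tbx4, Tbx6 and Tbx15. Depth limits these 3 genes most, at 9 to 62 reads per library.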
